A study of Mus with 2 samples.

Results

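The 8 transcription factor genes described here were Irx1, Irx2, Irx3, Sim1, Sim2, Pou3f3, Tfap2b and Hnf4a. They were chosen by symbol, as genes tied to the identity of nephron segments, with earlier results of these data known. All 8 were found among the 28693 features of both count tables. Their RNA was counted in single cells of kidneys from newborn mice (postnatal day 0) with the genotype Rbpj c/- ; Foxd1cre/+. In these animals Foxd1Cre, whose Cre recombinase follows the Foxd1 gene of the renal interstitium, acts on a conditional Rbpj allele, and the other Rbpj allele is the one written as minus in the genotype. Rbpj encodes the DNA-binding protein of the Notch pathway. The series names 2 control samples (Rbpj c/+ ; Foxd1cre/+) and 2 mutant samples. Only the 2 mutant libraries were analysed here, so every comparison below is between cell types inside mutant kidneys, and none measures an effect of the genotype. Whether the conditional allele was also deleted in nephron cells was not tested; Foxd1 RNA itself was highest in podocytes (233 CPM, against 97.0 CPM in stroma and mural cells).

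The nephron forms from a mesenchymal progenitor that turns into an epithelial vesicle and then an S-shaped tube. Cells along that tube take up proximal to distal identities and give rise to podocytes, the proximal tubule, the loop of Henle and the distal tubule. Homeodomain proteins of the Iroquois family (Irx), the PAS-domain proteins Sim1 and Sim2, the POU factor Pou3f3 (Brn1), the AP-2 factor Tfap2b and the nuclear receptor Hnf4a are used as markers or regulators of these identities. Pou3f3 is known for its part in loop and distal development, Tfap2b for the distal tubule, and Hnf4a for proximal tubule formation.

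On the mouse genome build GRCm38 (mm10), Irx1 (ENSMUSG00000060969) spans chr13:71958232-71963723 and Irx2 (ENSMUSG00000001504) spans chr13:72624430-72634196, with 661 kb between them. Irx3 (ENSMUSG00000031734) spans chr8:91798511-91801654. Sim1 (ENSMUSG00000019913) spans chr10:50894698-50989156 and Sim2 (ENSMUSG00000062713) spans chr16:94085104-94127032. Pou3f3 (ENSMUSG00000045515) spans chr1:42695768-42700210, and the long noncoding RNA gene Pantr1 ends 942 bases from it. Tfap2b (ENSMUSG00000025927) spans chr1:19208908-19238845. Hnf4a (ENSMUSG00000017950) spans chr2:163506811-163572907 and overlaps Hnf4aos, annotated on the same stretch.

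Replicates 1 and 2 held 163405630 and 135436576 UMIs (unique molecular identifiers, each standing for 1 captured RNA molecule). After removal of shallow barcodes, of barcodes rich in mitochondrial UMIs and of likely doublets, 5910 and 4937 cells were kept, and 8 of the deep barcodes were common to both libraries. Cells were assigned to types by their marker genes, a step called the gate below, and none of the 8 genes was a marker. The gate left 814 and 713 of the kept cells without a type, with Irx1 at 88.8 and 89.5 CPM and Tfap2b at 56.3 and 100.5 CPM, so cells with these genes are missing from the types below. The gate gave 804 and 864 nephron progenitors, 546 and 516 early nephron cells, 466 and 333 podocytes, 326 and 243 proximal tubule cells, 149 and 159 loop of Henle cells, and 27 and 17 distal tubule cells. All markers of the early nephron, proximal, loop and podocyte lists were highest in their own type, and so were 5 of the 6 progenitor markers and 7 of the 8 stroma and mural markers, with Foxd1 as the exception. Rbpj was present in both libraries, at 30.3 and 30.1 CPM in stroma and mural cells and at 49.8 and 50.7 CPM in early nephron cells, and counts of transcript ends do not show whether an internal exon was lost. Xist stood at 1169 and 0.187 CPM over all kept cells of replicates 1 and 2. The libraries were therefore not made from 1 and the same animal. The labels do not say how many animals each holds. P-values rest on the spread left between these 2 libraries after a shift shared by all cell types is removed. That spread was estimated jointly over all types with at least 20 cells in each library, not from the 2 types compared alone. Levels are given in CPM (the UMIs of a gene scaled to all UMIs of the cell type in that library), as mean ± SD over the 2 libraries. CPM are not scaled to gene length, so they are compared between cell types for 1 gene and not between genes. Fewer cells with a gene and less RNA per cell cannot be told apart in them, and shares of cells are given where that matters.

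The 8 genes were near 0 in nephron progenitors and all higher in the early nephron. Irx1 stood at 1.73 ± 0.54 CPM in progenitors (2.11 and 1.35 CPM in replicates 1 and 2) and at 150.2 ± 0.27 CPM in early nephron cells. For Pou3f3 the values were 1.61 ± 0.89 and 133 ± 6.85 CPM, and for Tfap2b 2.11 ± 0.64 and 88.7 ± 21.2 CPM. As a mean of each cell's own CPM, which weights cells equally, Tfap2b stood lower in the early nephron, at 54.6 and 61.9 CPM in replicates 1 and 2 against 104 and 73.7 CPM as pooled, so the order of the libraries turned. The progenitor levels of the other 5 genes lay between 0.316 CPM (Sim2, 7 and 6 UMIs) and 0.671 CPM (Irx3). In every case both early nephron libraries were above both progenitor libraries. The early nephron was compared with its progenitor across all genes, and 8 of the 8 genes passed the threshold (an adjusted p under 0.05 in edgeR's quasi-likelihood test, Benjamini-Hochberg over all genes tested), all higher in the early nephron. In this comparison 44.6% of the 15346 genes tested passed in either direction. The log2 fold changes ran from 5.25 ± 0.26 (SE) for Hnf4a to 7.50 ± 0.23 for Sim1, and their median was 6.36 against -0.01 over all genes. Sim1 had an adjusted p of 5.4e-15 and Hnf4a one of 3.2e-12 in the quasi-likelihood test. Each of the 8 folds moved by over 1.5 times in some alternative: Tfap2b stood at 4.27 with a mitochondrial limit of 5% and at 6.43 with clusters in place of the gate, and without replicate 1 Pou3f3 stood at 7.02 and Sim1 at 8.22.

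RNA from broken cells was present in droplets without a cell. In barcodes with at most 100 UMIs, Irx1 stood at 45.7 and 53.7 CPM, Pou3f3 at 51.1 and 61.7 CPM, Tfap2b at 56.8 and 53.4 CPM, and Hnf4a at 26.1 and 25.5 CPM. Irx2 and Irx3 lay between 18.5 and 26.98 CPM there, and Sim1 and Sim2 between 8.24 and 15.5 CPM. Every progenitor, stromal and immune level given here was below the level of the same gene in those droplets. The same held, among others, for every podocyte level, for Tfap2b, Sim2 and Irx2 in proximal cells, and for Hnf4a and Irx3 in loop cells.

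**Figure D1:**
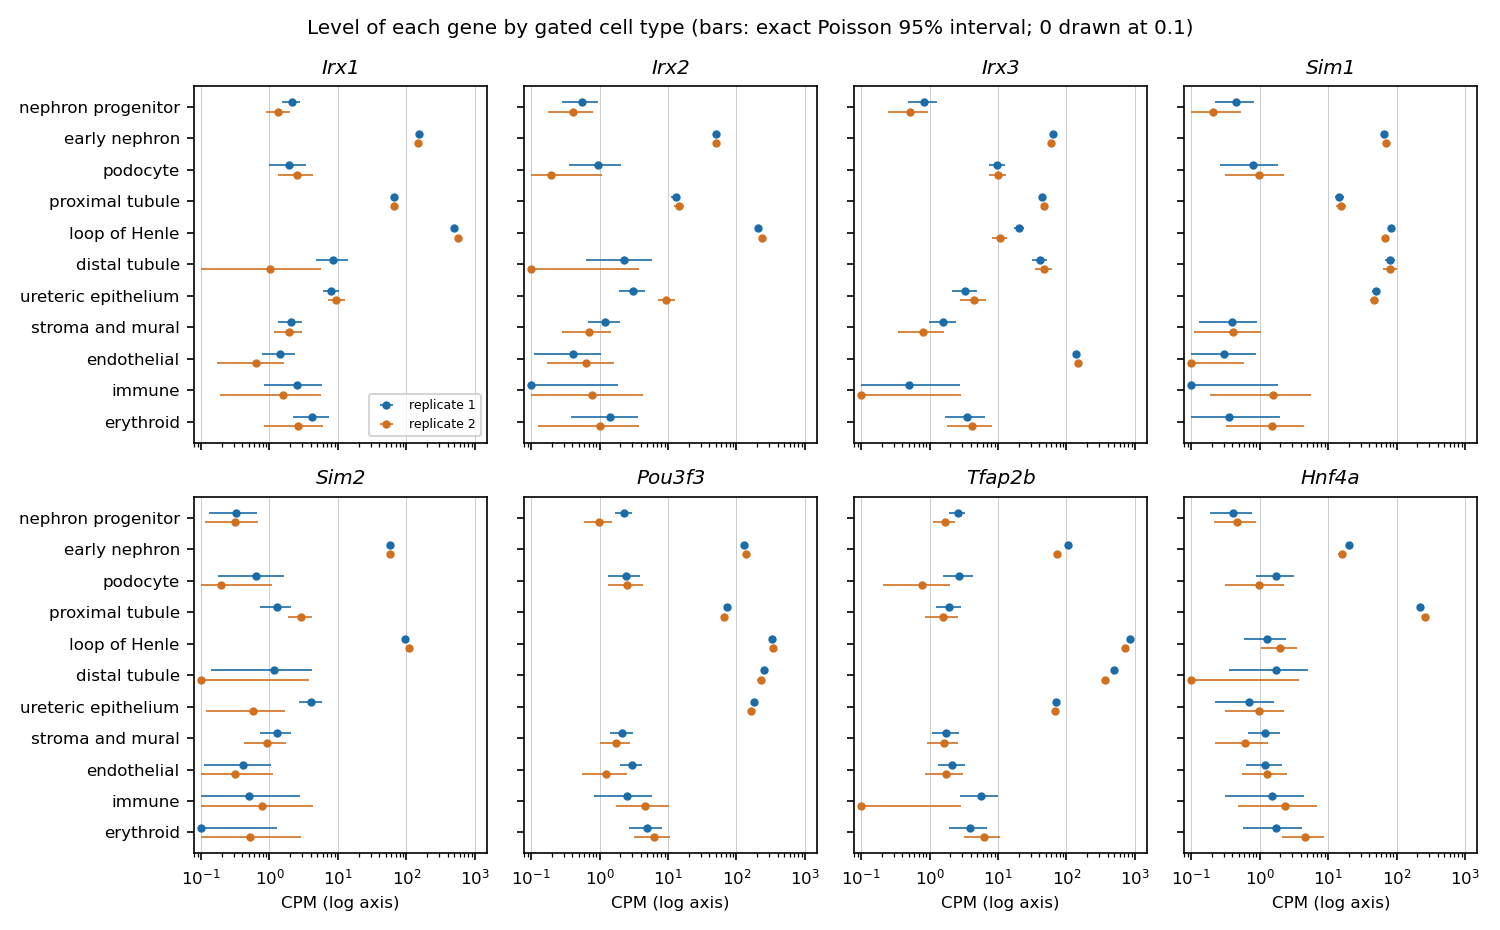
Level of each of the 8 genes in CPM (log axis) in 11 gated cell types, with 1 point for each library and bars for the exact Poisson 95% interval, which covers counting error only. Tfap2b, Irx1, Irx2 and Pou3f3 are highest in loop of Henle cells, Hnf4a in proximal tubule cells and Irx3 in endothelial cells.

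Loop of Henle cells, gated by Umod, Slc12a1 and 5 other markers, held the highest mean level of 6 of the 8 genes among the 10 types with at least 20 cells in each library. Tfap2b stood at 854.4 and 710.6 CPM there, against 104 and 73.7 CPM in the early nephron and 1.92 and 1.55 CPM in the proximal tubule. The groups did not overlap for Tfap2b. Irx1 stood at 487 and 572 CPM in the loop, against 150.4 and 150.03 CPM in the early nephron and 66.1 and 66.2 CPM in the proximal tubule. Irx2, its neighbour on chromosome 13, stood at 205 and 235 CPM in the loop, 49.5 and 51.0 CPM in the early nephron and 12.9 and 14.6 CPM in the proximal tubule. Both Irx genes therefore had the same order of levels, loop, early nephron, proximal tubule, with no overlap between libraries of neighbouring types. Pou3f3 stood at 332 and 342 CPM in the loop, and its next level was in the ureteric epithelium at 169.7 ± 11.7 CPM. Sim2 stood at 96.2 and 108.5 CPM in the loop, 57.3 and 57.9 CPM in the early nephron and 2.08 ± 1.12 CPM in the proximal tubule. Sim1 was at 82.0 and 68.6 CPM in the loop and at 65.5 and 70.6 CPM in the early nephron, 2 ranges that overlapped.

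The loop was compared with the early nephron across all genes, and 7 of the 8 genes passed, 5 higher and 2 lower in the loop, where 52.9% of all genes passed. Tfap2b was higher by 3.11 ± 0.13 (SE) on the log2 scale (adjusted p = 7.3e-13 by edgeR's quasi-likelihood test), Irx2 by 2.08 ± 0.14, Irx1 by 1.77 ± 0.10 and Pou3f3 by 1.29 ± 0.12. Sim2 was higher by 0.78 ± 0.15 (adjusted p = 2.1e-04 by the quasi-likelihood test). That call was lost with DESeq2 (0.82, adjusted p = 0.22), and the change was -0.75 ± 0.19 (adjusted p = 0.0026 by the quasi-likelihood test) with clusters in place of the gate, which place 143 of the gated loop cells in a cluster named early nephron. Hnf4a changed by -3.52 ± 0.28 and Irx3 by -2.03 ± 0.17. Their size depended on how cells were chosen: Hnf4a went from -6.05 (clusters) to -2.51 (mitochondrial limit 5%), Irx3 from -3.93 (mitochondrial limit 5%) to -1.39 (clusters), and Tfap2b and Irx1 stood at 2.02 and 1.16 with clusters. Sim1 did not pass, at 0.10 ± 0.12 with an adjusted p of 0.50 in the quasi-likelihood test, and its direction was not stable (-0.38 with a mitochondrial limit of 5%, -0.10 without replicate 1). The median of the 8 changes was 1.04 against -0.01 over all genes. Cells with over 50000 UMIs gave 71.8% and 61.3% of the loop UMIs, and without such cells Tfap2b was higher by 3.44 and Irx2 by 2.62.

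Shares of cells were compared at equal depth, and cells under 4000 UMIs were left out (1 and 2 loop, 10 and 9 early nephron, 3 and 7 proximal cells). With each other cell thinned to 4000 UMIs, Irx1 was detected in 73.0% (95% exact binomial interval 65.1 to 79.9%) and 77.1% (69.7 to 83.4%) of loop cells in replicates 1 and 2, and Tfap2b in 87.8% (81.5 to 92.6%) and 82.8% (76.0 to 88.4%). The Irx1 shares were 19.8% and 17.9% in the early nephron and 16.1% and 13.6% in the proximal tubule, whose libraries lay below those of the early nephron, and those of Tfap2b were 9.70% and 11.8% and then 0.619% and 0.424%. Hnf4a was detected in 51.4% and 53.8% of proximal cells, 8.96% and 6.11% of early nephron cells and 2.03% and 1.27% of loop cells. In erythroid cells, which should lack both genes, the mean thinned shares were 1.17% for Irx1 and 2.03% for Tfap2b, over the 282 and 219 erythroid cells that reached 4000 UMIs (216 and 151 did not). The median depths of all erythroid cells were 4619.5 and 4579 UMIs. Without thinning, Irx1 was detected in 85.2% and 83.6% of loop cells at median depths of 21097 and 17870 UMIs.

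Hnf4a ran the other way. It stood at 219.7 and 260.4 CPM in proximal tubule cells, 20.1 and 16.001 CPM in the early nephron, and 1.28 and 2.02 CPM in the loop. The proximal tubule was compared with the early nephron, and 8 of the 8 genes passed, 1 higher and 7 lower in the proximal tubule, where 59.4% of all genes passed. Hnf4a was the gene that was higher, by 3.83 ± 0.13 (SE) on the log2 scale (adjusted p = 9.6e-15 by edgeR's quasi-likelihood test). Tfap2b changed by -5.54 ± 0.22, Sim2 by -4.75 ± 0.25, Sim1 by -2.07 ± 0.14 and Irx2 by -1.76 ± 0.17. For Irx1 the change was -1.06 ± 0.10 and for Pou3f3 it was -0.83 ± 0.12, and their levels in proximal cells were 66.2 ± 0.02 and 69.0 ± 3.81 CPM. With a mitochondrial limit of 5%, which left 72 and 52 proximal cells, Irx1 turned to 0.49 ± 0.15 (adjusted p = 0.013) and Irx2 missed the threshold at -0.32 (adjusted p = 0.24), both by the quasi-likelihood test. The gated proximal cells fell mainly into 4 clusters made without the 8 genes. Counted over the gated proximal cells alone, Irx1 stood at 17.5 and 22.7 CPM in the first (297 cells), 10.9 and 1.96 CPM in the second (142 cells), 388 and 329 CPM in the third (81 cells) and 42.2 and 154 CPM in the fourth (45 cells). The 66.2 CPM of the whole type is an average over these. Irx3 lay at the threshold, with -0.34 ± 0.13 (adjusted p = 0.035 by the quasi-likelihood test). That call was lost in 6 alternatives, with adjusted p from 0.058 (quasi-likelihood) to 0.33 (DESeq2), and the direction turned to 0.29 with clusters in place of the gate. Hnf4a stood at 2.77 with clusters, Tfap2b at -3.96 with no doublet removal and Sim2 at -5.34 without replicate 2. The median of the 8 changes was -1.41 against -0.01 over all genes.

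Set directly against the proximal tubule, the loop differed in 8 of the 8 genes, 6 higher and 2 lower, where 45.3% of all genes passed. Tfap2b had the largest change of the 8, 8.65 ± 0.21 (SE) on the log2 scale. Hnf4a was next in size, at -7.36 ± 0.21. Among the other genes higher in the loop, Sim2 stood at 5.53 ± 0.25 and Irx2 at 3.84 ± 0.16. Adjusted p for Tfap2b, Sim2 and Irx2 were 3.2e-16, 5.5e-13 and 3.2e-13 by edgeR's quasi-likelihood test. Irx3 changed by -1.69 ± 0.17. Tfap2b in proximal cells (1.73 CPM) was close to stroma and mural cells (1.69 CPM). Hnf4a in loop cells (1.65 CPM) was close to podocytes (1.37 CPM). The size of the Tfap2b and Hnf4a folds therefore rests on levels near background. Irx1, Sim1 and Pou3f3 were higher by 2.83, 2.17 and 2.12. With a mitochondrial limit of 5% Sim1 stood at 0.91, Irx1 at 1.88, Irx2 at 2.84, Irx3 at -3.70 and Hnf4a at -5.58. With clusters Sim2 stood at 3.49, with no doublet removal Tfap2b at 6.99999, and without replicate 1 Irx3 at -2.30. The median of the 8 was 2.501, and that over all genes was 0.00.

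Irx1 was detected in 26.7% and 25.5% of the gated proximal cells. Clustering the cells without the 8 genes gave 2 clusters that took a proximal name. The larger, with 298 cells and Sult1d1 and Spp2 among its leading genes, had Irx1 at 17.5 and 22.6 CPM and Hnf4a at 270.1 and 314 CPM over all its cells. The smaller, with 140 cells led by Plau, Aadat, Ttr and Spink1, had Irx1 at 368 and 307 CPM and Hnf4a at 115 and 91.5 CPM over all its cells. Irx2 stood at 87.1 and 94.1 CPM in the smaller cluster and at 3.34 and 5.05 CPM in the larger, and Sim1 at 72.3 and 63.4 against 12.8 and 9.72 CPM. Tfap2b was at 1.74 and 0.65 CPM in the smaller cluster, from 4 UMIs and 1 UMI. Of its cells with Irx1, 39 of 60 in replicate 1 (65.0%) and 28 of 42 in replicate 2 (66.7%) also had Hnf4a RNA. Of all 140 cells of the cluster, 81 had been gated as proximal tubule and 49 were left without a type by the gate. The cluster is described because of its values and was not tested.

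**Figure D2:**
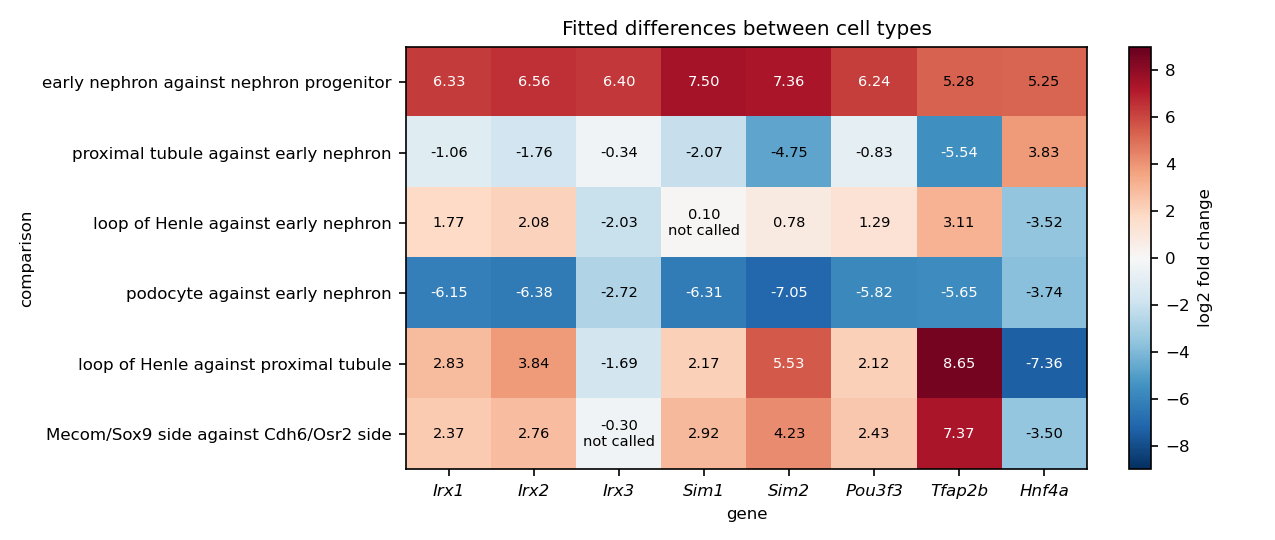
Log2 fold change of each gene in 6 comparisons between cell types, as fitted by edgeR (colour and printed value), with the cells that did not pass an adjusted p of 0.05 marked as not called. Hnf4a has the opposite sign to Tfap2b in each of the 4 comparisons among proximal, loop and early nephron cells and sides, and both have the same sign against progenitors and podocytes.

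Inside the early nephron 7 of the 8 genes, and 18.6% of all genes tested, differed between cells that were divided without the 8 genes. Early nephron cells were divided by genes outside the set into a side with more Cdh6, Osr2 and Fbln2 (268 and 216 cells) and a side with more Mecom, Sox9 and Mal (148 and 171 cells). Hnf4a stood at 41.5 and 37.6 CPM on the Cdh6/Osr2 side and at 3.80 and 3.18 CPM on the Mecom/Sox9 side. Tfap2b stood at 1.16 and 1.51 CPM on the first and at 255 and 179 CPM on the second. Irx1 went from 57.1 ± 0.95 to 298 ± 2.96 CPM, Irx2 from 15.2 ± 0.88 to 103.9 ± 0.97, Sim2 from 6.74 ± 1.26 to 130.1 ± 2.18, Sim1 from 19.0 ± 3.83 to 142 ± 3.98 and Pou3f3 from 47.9 ± 1.16 to 258 ± 19.4 CPM. Irx3 differed least, with 72.1 and 70.6 CPM on the Cdh6/Osr2 side and 57.4 and 59.7 CPM on the Mecom/Sox9 side. The libraries of the 2 sides did not overlap for any of the 8 genes.

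In the test of the sides, 7 of the 8 genes passed, 6 higher and 1 lower on the Mecom/Sox9 side, where 18.6% of the 15195 genes tested passed. Tfap2b was higher by 7.37 ± 0.26 (SE) on the log2 scale, with an adjusted p of 3.5e-14 by edgeR's quasi-likelihood test. Sim2 was higher by 4.23 ± 0.22, Sim1 by 2.92 ± 0.15, Irx2 by 2.76 ± 0.17, Pou3f3 by 2.43 ± 0.14 and Irx1 by 2.37 ± 0.12. Irx1 stood at 3.15 with a mitochondrial limit of 5%, and Irx2 at 3.37 with clusters. Hnf4a changed by -3.50 ± 0.22 (adjusted p = 1.5e-10 by the quasi-likelihood test), and by -2.75 with a mitochondrial limit of 5% and -4.60 with clusters. Irx3 did not pass, at -0.30 ± 0.14 with an adjusted p of 0.17 in the quasi-likelihood test. It passed in the same direction with clusters in place of the gate (-0.80), without cells over 50000 UMIs (-0.55) and with Fbln2 left out of the side score (-0.39). The median of the 8 was 2.59 against 0.01 over all genes. Early nephron cells on neither side (130 and 129) had Tfap2b at 5.61 and 1.49 CPM and Irx1 at 44.9 and 31.0 CPM.

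Few cells of the Mecom/Sox9 side held Hnf4a RNA, so few could hold it together with Tfap2b RNA. On the Mecom/Sox9 side 79 of 148 and 89 of 171 cells had Tfap2b, 14 and 9 had Hnf4a, and 4 in each library had both. Hnf4a stood at 3.80 and 3.18 CPM on this side, below its level in droplets without a cell, so no co-detection is read from these counts. On the Cdh6/Osr2 side 9 of 268 and 7 of 216 cells had Tfap2b, shares (3.36% and 3.24%) no higher than the 3.73% and 3.70% of progenitors at a lower depth, so no co-detection is read there.

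Irx1, Irx2 and Sim2 were mostly detected in the same cells. On the Mecom/Sox9 side 61 of the 63 cells with Sim2 in replicate 1 also had Irx1, and in replicate 2 it was 56 of 57. Of the cells with Irx2, 69 of 74 had Irx1 in each library. Pou3f3 was found with and without Irx1: it was detected in 96.3% and 95.1% of cells with Irx1 and in 81.8% and 84.3% of those without. Irx3 RNA was detected in 32.9% and 26.8% of the cells with Irx1 and in 59.1% and 65.2% of those without. The median depths were 32736 and 20498 UMIs in cells with Irx1 and 19820 and 20184 UMIs in cells without. These shares were not thinned and not tested.

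Loop cells were described in the same way. Of the 149 and 159 gated loop cells, 127 and 133 had an Irx1 UMI and 22 and 26 had none. Irx2 was detected in 122 of 127 and 123 of 133 cells with Irx1, and in 2 of 22 and 0 of 26 without. Sim2 was detected in 87 of 127 and 83 of 133 cells with Irx1. In cells without Irx1 it was detected in 0 of 48 over both libraries, which allows a share of up to 6.25% of cells with a UMI at this depth and sets no limit on cells that express the gene. Irx3 was detected in 59.1% and 46.2% of the cells without Irx1 and in 12.6% and 6.02% of the cells with it. Pou3f3 and Tfap2b were found in nearly all cells of both kinds: Tfap2b in 123 of 127 and 130 of 133 cells with Irx1, and in 21 of 22 and 25 of 26 without. Sim1 stood at 124 and 132 CPM in cells without Irx1 and at 74.6 and 57.9 CPM in cells with it. The median depths were 21410 and 18530 UMIs in cells with Irx1 and 19816 and 16533 UMIs in cells without. This split was chosen after the values were seen and is given as a description, with no test.

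Genes outside the set were read in the same 2 kinds of loop cell, again with no test. Tmem52b, 1 of the 8 distal tubule markers of the gate, was detected in 22 of 22 and 24 of 26 loop cells without Irx1, against 26 of 127 and 27 of 133 with it. Slc12a3, another of those markers, was detected in 3 of 22 and 1 of 26 loop cells without Irx1 and in 5 of 127 and 1 of 133 with it. Calb1, a gene of the distal nephron, was detected in 1 of 22 and 1 of 26 cells without Irx1 and in 11 of 127 and 2 of 133 with it. Nos1, which marks the macula densa, was detected in 2 of 22 and 1 of 26 cells without Irx1 and in 46 of 127 and 46 of 133 with it. Umod, the gene of uromodulin, stood at 17.1 and 16.4 CPM without Irx1 and at 229 and 367 CPM with it. Slc12a1, the cotransporter of the thick ascending limb, was detected in 43 of the 48 cells without Irx1 and in 253 of the 260 with it.

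**Figure D3:**
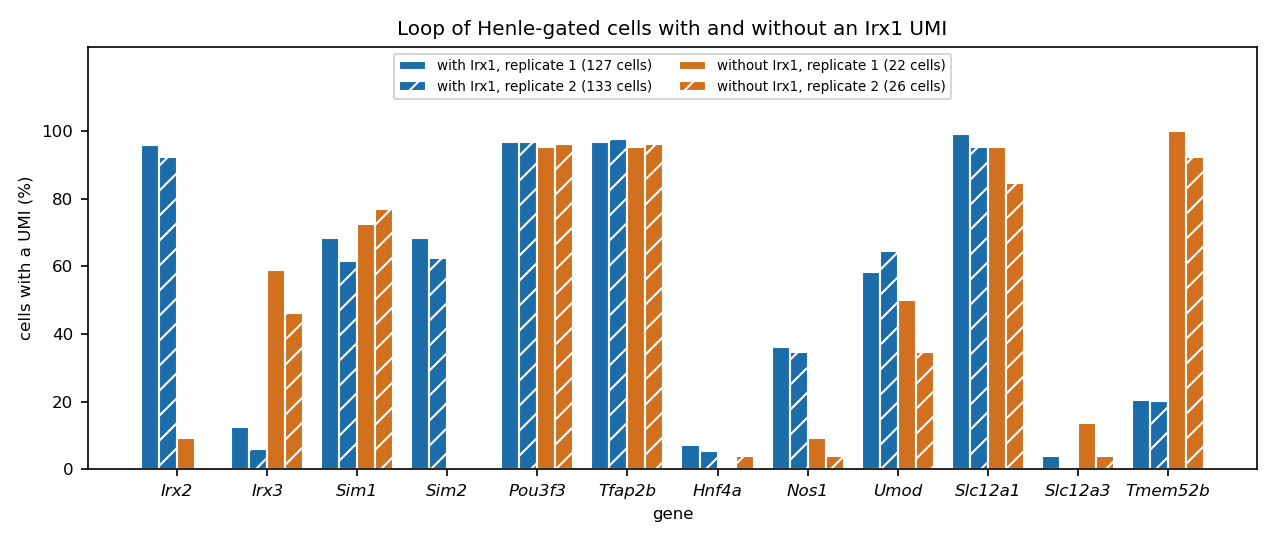
Share of gated loop of Henle cells with a UMI of each gene, for cells with an Irx1 UMI (blue, 127 and 133 cells in replicates 1 and 2) and without one (orange, 22 and 26 cells). The shares for Irx2 and Sim2 are higher in cells with Irx1, those for Irx3 and Tmem52b are higher in cells without it, and Pou3f3, Tfap2b and Slc12a1 are found in most cells of both kinds.

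Cells gated as distal tubule had Tfap2b, Pou3f3, Sim1 and Irx3 RNA and little of the other 4. They numbered 27 and 17, too few in replicate 2 for the planned minimum of 20, so no test was run on them as gated. They were deep, with medians of 69375 and 32772 UMIs, and cells over 50000 UMIs gave 90.0% and 84.5% of their UMIs. Tfap2b stood at 486 and 364 CPM in them, Pou3f3 at 249 and 231 CPM, Sim1 at 79.7 and 81.1 CPM and Irx3 at 40.7 and 46.6 CPM. Irx1 stood at 8.60 and 1.01 CPM, from 15 UMIs and 1 UMI. Sim2 had 2 and 0 UMIs, Irx2 4 and 0, and Hnf4a 3 and 0. In 40 of these 44 cells no Irx1 UMI was found. The distal markers had no type of their own in which to be checked, and 28 of the 44 cells fell into a cluster led by Fxyd4, Sprr2f and Aqp2, genes of the collecting duct, so the distal label is weak. Slc12a3, the cotransporter that defines the distal convoluted tubule, was detected in 19 of the 40 cells without Irx1; it was 1 of the markers that chose these cells.

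With no lead required between the best and the next type, the distal gate held 29 and 23 cells and could be tested. Against the loop, Irx1 changed by -6.72 ± 0.31 (SE), Irx2 by -7.42 ± 0.49 and Sim2 by -7.35 ± 0.42 on the log2 scale (adjusted p of 8.4e-12, 1.8e-09 and 2.2e-10 by edgeR's quasi-likelihood test). Irx3 was higher by 1.17 ± 0.19 (adjusted p = 2.8e-04 by the quasi-likelihood test). Tfap2b and Pou3f3 changed by -0.89 ± 0.12 and -0.52 ± 0.13. Sim1 stood at 0.04 ± 0.16 and Hnf4a at -1.32 ± 0.90, and neither passed. In this comparison 12.3% of the 15416 genes tested passed in either direction. Against the early nephron, where 45% of all genes passed, Tfap2b was higher by 2.13 ± 0.13 (SE) and Pou3f3 by 0.83 ± 0.13 (quasi-likelihood test, adjusted p = 1.1e-10 and 3.0e-05). Irx3 was lower there, at -0.53 ± 0.16 (adjusted p = 0.012 by the quasi-likelihood test), so it lay between the early nephron and the loop. Hnf4a changed by -4.41 ± 0.55, Irx1 by -4.98 ± 0.34, Irx2 by -5.40 ± 0.62 and Sim2 by -6.53 ± 0.46 against the early nephron, and Sim1 did not pass (0.28 ± 0.15, adjusted p = 0.15 by the quasi-likelihood test). This setting was an alternative, since the planned gate gave too few cells.

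The gated loop cells fell mainly into 2 clusters. Levels are given over all cells of each cluster, gated as loop or not, so they are no comparison of loop cells alone. A cluster of 532 cells led by Spon1, Fgf8 and Epha4, which took an early nephron name and held 211 gated early nephron, 143 loop and 158 ungated cells, had Sim2 at 161 and 138 CPM, Tfap2b at 507 and 409.5 CPM and Irx1 at 448 and 407 CPM. A cluster of 177 cells led by Slc12a1, Pappa2 and Klk1 had Sim2 at 26.2 and 61.3 CPM, Tfap2b at 892 and 764 CPM and Irx1 at 407 and 581 CPM. The Irx1 ranges overlapped, and those of Sim2 and Tfap2b did not. The cluster led by Lhx1, Dll1 and Wnt4, with 450 gated early nephron cells, 45 proximal and 81 ungated among its 581, had Irx3 at 68.9 and 67.6 CPM, Hnf4a at 33.5 and 50.8 CPM and Tfap2b at 3.66 and 1.61 CPM. In the cluster led by Osr2, Cpn1 and Car4, with 265 gated early nephron and 142 proximal cells, Hnf4a stood at 99.8 and 101.01 CPM and Tfap2b at 2.26 and 1.80 CPM.

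**Figure D4:**
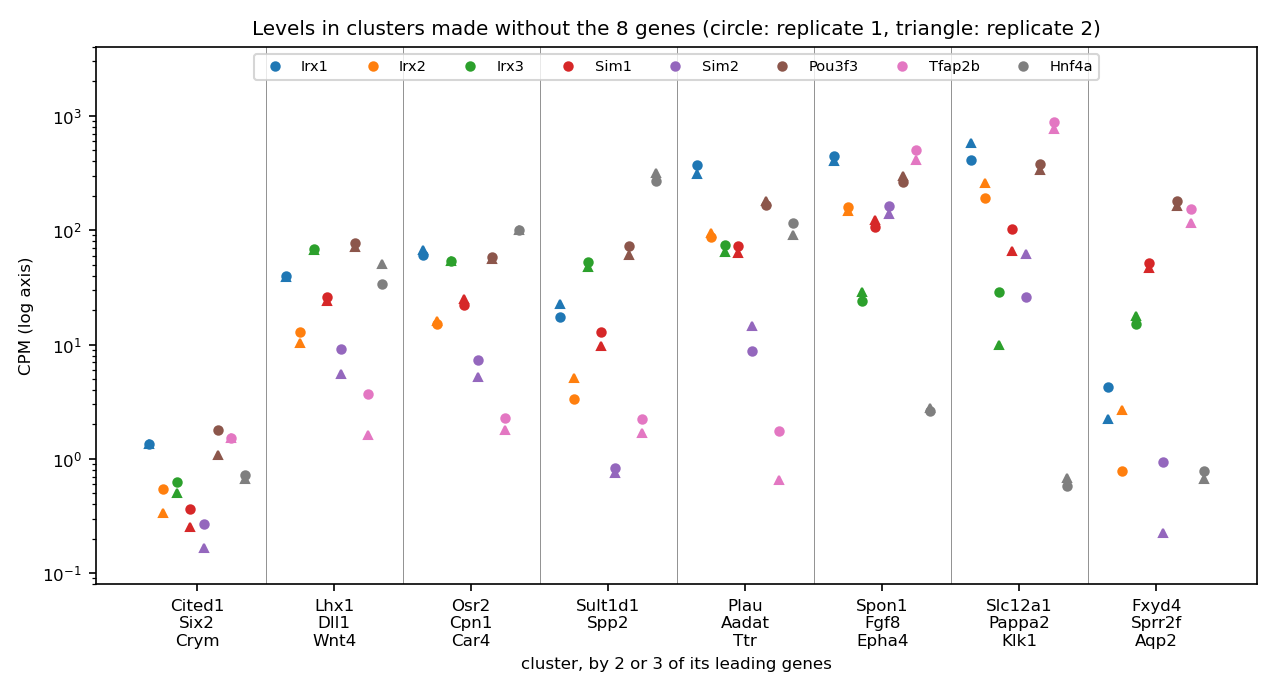
Level of the 8 genes in CPM (log axis) in 8 clusters made without these genes, named below the axis by 2 or 3 of their leading genes, with a circle for replicate 1 and a triangle for replicate 2. The Plau cluster has both Irx1 (above 300 CPM) and Hnf4a (above 90 CPM), while Tfap2b is above 100 CPM only in the Spon1, Slc12a1 and Fxyd4 clusters among the 8 drawn.

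Podocytes, the filter cells of the glomerulus, held little RNA of the 8 genes. Against the early nephron 8 of the 8 genes were lower, where 64.4% of all genes passed in either direction. The changes ran from -2.72 ± 0.19 (SE) for Irx3 to -7.05 ± 0.38 for Sim2 on the log2 scale (adjusted p of 2.0e-10 and 6.9e-12 by edgeR's quasi-likelihood test), with a median of -5.98 against -0.08 over all genes. Sim2 rested on 4 UMIs and 1 UMI in podocytes, and Irx2 on 6 UMIs and 1 UMI. All 8 were lower in every alternative, but each fold moved by over 1.5 times in some: Sim2 stood at -5.15 with no doublet removal and -8.17 without replicate 1, Irx3 at -1.74 with clusters and -3.45 with a mitochondrial limit of 5%, Irx2 at -7.98 without replicate 1 and -5.72 without replicate 2, and Tfap2b at -6.61 without replicate 1. Irx3 stood at 9.77 and 9.89 CPM in podocytes. The gated podocytes fell mainly into 2 clusters. Counted over gated podocytes alone, Irx3 stood at 19.7 and 14.5 CPM in the 176 cells of the cluster led by Pcp4 and R3hdml, and at 4.15 and 6.67 CPM in the 611 cells of the cluster with H2-Q7 and Nphs1 among its leading genes. The first cluster also held 13 gated early nephron cells and 27 ungated cells. This was not tested.

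Outside the nephron, Irx3 RNA was found in endothelial cells, its highest level of all gated types, at 139.6 and 145.5 CPM, above the early nephron at 63.7 and 60.1 CPM. Thinned to 4000 UMIs, 41.2% (37.4 to 45.1%) and 35.1% (30.7 to 39.8%) of the endothelial cells that reached that depth (645 and 441, with 85 and 46 left out) had an Irx3 UMI, against 1.22% of erythroid cells. In the same endothelial cells Irx1 stood at 1.02 ± 0.56 CPM. Irx5, which lies 556 kb from Irx3, was also highest there, at 71.0 and 65.3 CPM, against 14.7 ± 0.24 CPM in the early nephron. In the ureteric epithelium, which forms the collecting duct and is not part of the nephron lineage, Pou3f3 (178 and 161 CPM), Sim1 (49.5 and 47.3 CPM) and Tfap2b (70.9 and 68.3 CPM) were present, Irx1 was at 7.92 and 9.51 CPM and Hnf4a at 0.70 and 0.97 CPM. The cluster led by Fxyd4 and Aqp2 had Tfap2b at 152 and 115 CPM and the cluster led by Rprm and Ret had it at 70.9 and 60.5 CPM, but the first also holds the 28 cells gated as distal tubule, so this is no comparison of ureteric cells alone.

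For each gene the 3 genes with the most similar level were sought over 10 points, 5 nephron types in 2 libraries, by Pearson's r of log2(CPM + 1) among 9133 genes with at least 10 CPM. These points share libraries and the values are a description. Among the 3 genes most like Irx1 were Pantr1 (0.998) and Pou3f3 (0.997). Among those most like Pou3f3 were Irx1 (0.997) and Pantr1 (0.994). Tfap2b was most like Prdm16 (0.997), Ptges and Gm13111. Hnf4a was most like Anks4b (0.996), Slc2a2, the glucose transporter gene, and RP23-306P12.2. Sim2 was most like Sall3 (0.982), Minpp1 and Cxcl14. Irx3 was most like Clu (0.988), Prss23 and Pcdh7. Irx2 was most like Emc10 (0.990), Rap1gap2 and Irx1. Among those most like Sim1 were Bag1 (0.995) and Scn8a (0.985).

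A list of 16 paralogs, partners and overlapping or adjacent RNAs of the 8 genes was read in the same fits, and 9 of the 16 (10 for the sides) had enough UMIs to be tested. Against progenitors, 7 were higher and 1 lower in the early nephron (44.6% of all genes passed), with a median of 4.02 against -0.01 over all genes. Pantr1 was higher by 5.97 ± 0.15 (SE) and Tfap2a by 5.64 ± 0.37 on the log2 scale (adjusted p of 6.6e-16 and 2.6e-10 by edgeR's quasi-likelihood test). Irx5 stood at 14.9 and 14.6 CPM in the early nephron and at 0.092 and 0.10 CPM in progenitors, and Hnf4g at 4.76 and 4.44 against 0.092 and 0 CPM. On the Mecom/Sox9 side 4 of 10 were higher and 1 lower (18.6% of all genes): Tfap2a, the AP-2 paralog, was higher by 6.19 ± 0.41, Pou3f1 by 4.56 ± 0.46 and Pantr1 by 2.23 ± 0.13, and Hnf4g, the paralog of Hnf4a, changed by -2.59 ± 0.42. The loop against the early nephron gave 2 higher and 5 lower (52.9% of all genes), among them Pantr1 (1.60) and Pou3f1 (-5.01, from 14.96 and 24.7 CPM to 1.14 and 0 CPM). The proximal tubule against the early nephron gave 3 higher and 5 lower (59.4%), among them Hnf4g (3.23) and Tfap2a (-5.07). The loop against the proximal tubule gave 3 higher and 2 lower (45.3%), among them Tfap2a (4.06) and Hnf4g (-4.64). Podocytes against the early nephron gave 3 higher and 5 lower (64.4%), among them Pantr1 (-6.48). The medians of this list in these 5 comparisons were 0.25 (sides), -0.78 (loop against early nephron), -0.76 (proximal tubule), -0.11 (loop against proximal tubule) and -2.48 (podocytes). Hnf4aos had 0 UMIs in early nephron and loop cells and 2.08 and 2.21 CPM in proximal cells. The early nephron cells held 385 and 234 UMIs of Hnf4a. In podocytes Hnf4aos was called higher than in the early nephron (adjusted p = 0.015 by the quasi-likelihood test), and Hnf4a was lower there. Hnf4aos overlaps Hnf4a, and whether counting used the strand is not given in the sources used here. How far its counts are separate from those of Hnf4a was not tested.

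A second list held 23 other regulators of nephron patterning, of which 21 were tested. In the early nephron 12 were higher and 3 lower than in progenitors (44.6% of all genes passed). Hes5, a Notch target, was higher by 8.10 ± 0.29 (SE), Emx2 by 6.997 ± 0.18 and Grhl2 by 5.66 ± 0.30 on the log2 scale (the largest adjusted p was 1.3e-11 by edgeR's quasi-likelihood test). On the Mecom/Sox9 side 7 were higher and 7 lower (18.6% of all genes). Grhl2, an epithelial factor, was higher by 5.19 ± 0.36 there, and Maf (-4.81 ± 0.41), Wt1 (-3.07 ± 0.25) and Emx1 (-2.50 ± 0.50) were lower. In the loop 5 were higher and 11 lower than in the early nephron (52.9%), among them Tfcp2l1 (4.55 ± 0.14), Wt1 (-6.13), Hes5 (-5.81) and Hey1 (-4.40). In the proximal tubule 6 were higher and 14 lower than in the early nephron (59.4%), among them Emx1 (3.51), Hes5 (-5.26), Hey1 (-4.51) and Foxc2 (-4.44). The loop against the proximal tubule gave 8 higher and 7 lower (45.3%), among them Maf (-6.50), Wt1 (-3.91), Grhl2 (3.66) and Hoxd8 (3.57). In podocytes 5 were higher and 14 lower than in the early nephron (64.4%), among them Emx2 (-5.24). The medians of this list were 1.04 (early nephron against progenitors), -0.26 (sides), -0.53 (loop against early nephron), -1.33 (proximal tubule), 0.32 (loop against proximal tubule) and -1.18 (podocytes), and those of all genes lay between -0.08 and 0.01.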

How the data were processed

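The authors deposited, per the file headers, unfiltered matrices of UMI counts per gene and barcode for 2 single-cell libraries (10x Chromium, 3' end). Per the submitters' processing notes they came from Cell Ranger 6.0.1 with build mm10, while the matrix headers name Cell Ranger 4, and the annotation is not given in the sources used here. Both libraries form 1 group, and the controls were not analysed here. Barcodes with at least 2000 UMIs and at most 10% mitochondrial UMIs were kept (6910 and 5917 barcodes had the UMIs, and 690 and 768 then failed the mitochondrial limit). The barcodes with the highest Scrublet scores were removed as doublets (310 and 212, a share set to rise with the number of barcodes). Each cell took the type with the highest mean z-score over its markers, with a lead of at least 0.25 over the next type and at least 3 markers detected; 5096 and 4224 cells were gated. Early nephron sides needed a score difference of 0.25. Counts were summed by library and type (at least 20 cells) and tested with edgeR 4.0.16 (R 4.3.3; TMM scaling, quasi-likelihood, library as a block), with Benjamini-Hochberg adjustment over all genes tested and a threshold of 0.05. The block pairs cell types taken from the same library. The distal gate fell under 20 cells, so its planned comparisons were run only with no lead. Leiden clusters (scanpy 1.11.5, resolution 1, 2000 variable genes, 30 components, 15 neighbours) were made without the 8 genes and the 2 gene lists.

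The named genes were the 8, for each the 3 non-marker genes of most similar level, and from each list at most 4 genes with the largest called change, of 1 direction in each library; named genes resting on few UMIs are given without a fold or left out. A few other genes that the rule names are not reported here. The 8 genes and all lists were chosen with earlier results of these data known. Positions come from RefSeq's annotation of GRCm38.p6, where 8 of 8 genes matched. On counts simulated for the loop against the early nephron (15346 genes), 98 of 100 genes changed by 1 on the log2 scale and 100 of 100 changed by 2 were recovered, with 8 false calls among 15146. The simulation gave all genes the same spread and had no other differences between types or libraries. It changed only genes above a minimum mean level. It therefore checks that the test runs as meant, and does not describe genes with few UMIs or a wider spread. Intervals and limits from counts of 0 cover counting error only. DESeq2 1.42.0, other scalings, filters, gates, clusters, no block and each library left out were tried as alternatives.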

Additional observations from a re-analysis of the deposited data

How the results depend on the processing

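Of 536 alternative values with a test, 521 kept the direction and side of the threshold, 8 fell short of it, 3 newly passed it and 4 reversed. Leaving out 1 library leaves 1 column per type, which gives a value with no test; 95 of these 96 values kept their direction. The reversals were Irx1 in the proximal tubule with a mitochondrial limit of 5% (0.49 on the log2 scale), Irx3 in the proximal tubule (0.29) and Sim2 in the loop (-0.75) with Leiden clusters in place of the gate, and Sim1 in the loop, which did not pass in the first place, with a mitochondrial limit of 5% (-0.38) and without replicate 1 (-0.10), all against the early nephron. The cause was not tested. Of the 632 values 80 moved the fold by over 1.5 times, in 38 of the 48 pairs of gene and comparison: 26 with a mitochondrial limit of 5%, 21 with clusters, 13 without cells over 50000 UMIs, 10 with no doublet removal, 8 with a library left out and 2 with a gate lead of 0.5. The counts of the 8 genes called stayed within 1.5 times in every alternative run. Without the library block, Irx3 in the proximal tubule against the early nephron stood at -0.34 with an adjusted p of 0.13 in edgeR's quasi-likelihood test, and no other call changed. Of 48 levels, 25 moved by more than 1 SD when the mean of per-cell CPM was used, among them Tfap2b in the early nephron (58.2 against 88.7 CPM). Depth limits values that rest on fewer than about 10 UMIs, such as Sim2 and Irx2 in podocytes.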
